A study of Mus musculus with 6 samples.

Results

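The genes of MHC class II antigen presentation were followed in macrophages sorted from injured mouse sciatic nerve. They were chosen by name, as the rows of the deposited tables for H2-Aa, H2-Ab1, H2-Eb1, H2-DMa, H2-DMb1, H2-DMb2, H2-Oa, H2-Ob, Cd74 and Ciita, and all 10 were found among 24822 gene symbols. Recruited macrophages were sorted as ECFP+ cells and resident macrophages as EGFP+ cells, both CD64+ and CD11b+ and without SiglecF or Ly6G. Each group had 3 libraries, and each library came from about 400 cells of 3 pooled mice, with 1 nerve taken from each mouse. All mice were C57BL/6 and carried Macblue x Cx3cr1egfp/+, so every library came from mice with EGFP in 1 copy of Cx3cr1, the fractalkine receptor gene, and with the Macblue transgene, in which a modified Csf1r promoter drives ECFP. All nerves were taken from the injured side at day 14 after CCI, the nerve injury given in the labels. The labels do not say whether a recruited and a resident pool came from the same mice. Nerves without injury were not analysed here, so resident stands for EGFP+ cells of an injured nerve.

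MHC class II molecules display peptides from endocytosed material to CD4 T cells. An alpha and a beta chain pair in the endoplasmic reticulum with the invariant chain, which fills the peptide groove and guides the complex to endosomes. There lysosomal proteases cut the invariant chain down to a short remnant, the chaperone DM exchanges that remnant for peptides, and DO holds DM back. In mouse the classical pair I-A is encoded by H2-Aa and H2-Ab1. H2-Eb1 encodes the beta chain of I-E, whose alpha chain gene is defective in C57BL/6. Transcription of the classical chains depends on Ciita, the class II transactivator. Ciita binds no DNA itself and is held at class II promoters by the factors RFX, CREB and NF-Y on the X and Y boxes.

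Stretches upstream of 6 members are shown, chosen because TGATTGG, which holds the Y box core ATTGG, stands there once on the gene's strand. Promoters of 7 of the 10 members were found in the RefSeq promoter table (GRCm38.p6), each 250 bases before and 50 after an annotated start. H2-DMa has a pair of entries there, which makes 8 promoters. Capitals mark the Y box core ATTGG and the end of the X1 box, AACNGATG, searched on both strands.
H2-Aa: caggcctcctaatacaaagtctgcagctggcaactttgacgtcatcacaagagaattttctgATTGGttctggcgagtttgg
H2-Eb1: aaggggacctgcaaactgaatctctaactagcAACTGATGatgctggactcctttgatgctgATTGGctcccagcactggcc
H2-DMb1: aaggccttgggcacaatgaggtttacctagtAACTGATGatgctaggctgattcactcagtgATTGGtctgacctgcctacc
H2-DMb2: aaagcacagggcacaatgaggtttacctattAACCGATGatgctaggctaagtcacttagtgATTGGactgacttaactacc
H2-Oa: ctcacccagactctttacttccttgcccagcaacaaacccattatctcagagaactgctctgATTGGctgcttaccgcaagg
H2-Ob: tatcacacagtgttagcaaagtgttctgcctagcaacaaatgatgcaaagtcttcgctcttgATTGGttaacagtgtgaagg
The stretches lie on chromosome 17 of that build, H2-Aa at chr17:34287852-34287933 on the minus strand and the others on the plus strand. H2-Eb1 is at chr17:34305746-34305827, H2-DMb1 at chr17:34153068-34153149 and H2-DMb2 at chr17:34145097-34145178. H2-Oa is at chr17:34092274-34092355 and H2-Ob at chr17:34238786-34238867.

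ATTGG was found on the gene's strand in 7 of the 8 member promoters and in 22.1% of 32851 promoters in the table (37.4% on either strand). In the 6 stretches shown it begins at positions from -90 in H2-DMb2 to -43 in H2-Oa, counted from the annotated start. In H2-DMa, which is not shown, it begins at -198. AACNGATG was found in 3 member promoters, those of H2-Eb1, H2-DMb1 and H2-DMb2, against 2.32% of all promoters on either strand. It ends 22 bases before the Y box core in H2-Eb1 and 23 bases before it in H2-DMb1 and H2-DMb2. The longer run TGATTGG overlaps ATTGG and was chosen with the promoters known. It was found on the gene's strand in 6 of the 8 member promoters and in 4.01% of all promoters (7.82% on either strand). Only promoters that hold it once are shown, so its presence in all 6 stretches was fixed in advance. The stretches of H2-DMb1 and H2-DMb2 are alike at 69 of 82 positions. These matches describe letters and do not show binding.

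The 6 libraries held 16688848 to 27547336 expected counts, and 3 counts in a library correspond to 0.105 to 0.179 CPM, a level relative to library size (with TMM scaling). Such limits cover counting error only. Csf1r, a receptor that macrophages need for survival, had a level of 1441 ± 228 CPM in recruited and 1233 ± 243 CPM in resident libraries (SD, n = 3 each), and Fcgr1, which encodes CD64, at 159 ± 30.4 and 184 ± 45.8 CPM. Itgam, which encodes CD11b, a marker of the sort, was higher in every recruited library, at 946 ± 153 CPM in recruited and 514.5 ± 161 CPM in resident libraries (adjusted p = 0.137). Cd68, a lysosomal macrophage marker, was likewise separate, at 2525 ± 109 CPM in recruited and 2055 ± 82.2 CPM in resident libraries (adjusted p = 0.248). Aif1, a macrophage marker also known as IBA1, passed the test and was lower in recruited cells, at 144 ± 36.0 CPM in recruited and 345 ± 31.8 CPM in resident libraries (adjusted p = 0.0493). Of the 2 markers that the sort excluded, Ly6g was at 0 in all 6 libraries. Siglecf was low but present, at 3.21 ± 2.57 CPM in recruited and 2.53 ± 3.25 CPM in resident libraries (adjusted p = 0.922). Cx3cr1, the gene that carries EGFP, overlapped between the groups, at 34.4 ± 24.4 CPM in recruited and 59.0 ± 29.9 CPM in resident libraries (adjusted p = 0.557). The resident libraries varied more, with a biological coefficient of variation of 0.605 over all tested genes, against 0.286 for the recruited libraries.

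All 10 members had lower mean levels in recruited than in resident macrophages, and 3 of them passed the test, the invariant chain Cd74 and the I-A chains H2-Aa and H2-Ab1. They were 2.99-fold, 3.09-fold and 2.74-fold higher in resident cells. The members together took 1.61, 1.46 and 1.21% of the expected counts in recruited replicates 1 to 3, against 3.26, 3.78 and 5.35% in resident replicates 1 to 3. In bulk libraries, fewer cells with a transcript and less transcript per cell cannot be told apart. All 10 members passed the filter on low counts. In edgeR's quasi-likelihood test, adjusted over all 11354 tested genes, the threshold of 0.05 was passed by 0.255% of tested genes toward resident and by 0.0617% toward recruited cells. Of the 10 members 3 passed toward resident and 0 toward recruited cells. The members' median log2 difference, recruited minus resident, was -1.60, and that of all tested genes 0.01. For 8 of the 10 members every recruited library lay below every resident library, as for 12.6% of all tested genes. The opposite separation, seen in 12.2% of tested genes, was found in 0 members. At an unadjusted p under 0.05 there were 9 members lower and 0 higher in recruited cells, against 8.65% and 8.13% of tested genes. For 9 members the level was at least 2-fold higher in resident cells, as for 7.05% of tested genes. The members had been chosen with earlier results of these data known.

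**Figure D1:**
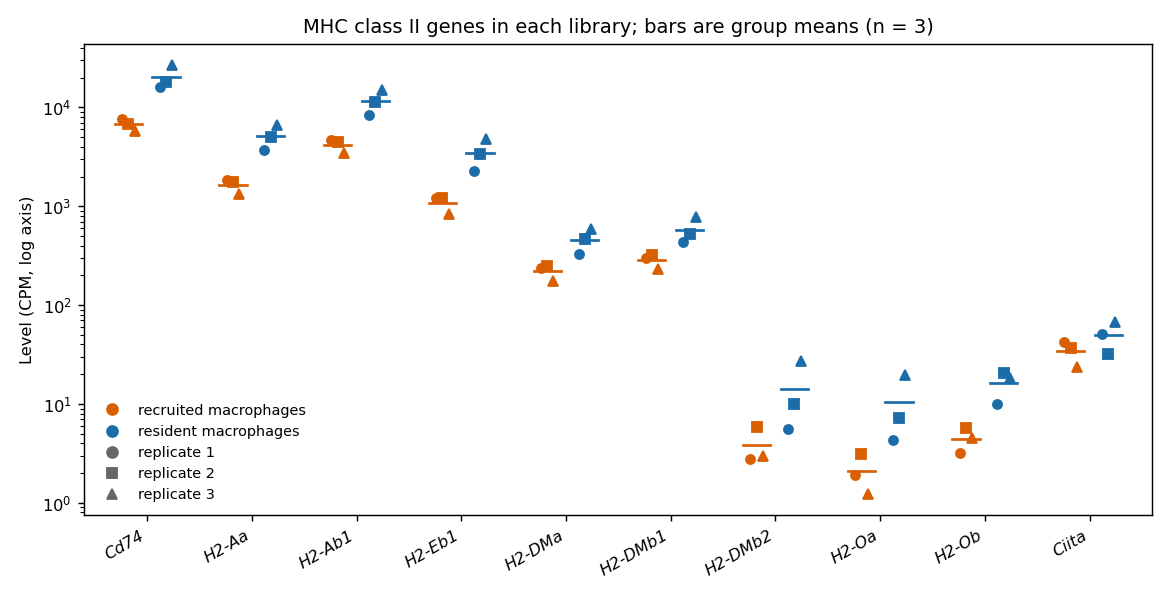
CPM (log axis) of the 10 MHC class II genes in each of the 3 recruited and 3 resident libraries, with bars at the group means. Recruited points lie below all resident points for every gene except H2-DMb2 and Ciita, and levels run from 1.23 CPM for H2-Oa to 26619 CPM for Cd74.

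The number of calls depended on single libraries. Without resident replicate 1, 7 members passed, adding H2-Eb1, H2-DMa, H2-DMb1 and H2-Ob to the 3, where 2.81% of tested genes passed toward resident cells. Leaving out resident replicate 2 or 3 or recruited replicate 1, 2 or 3 left 0 members past the threshold in edgeR, with 7 to 10 at an unadjusted p under 0.05, as for 10.8 to 14.7% of all genes tested in those fits, in either direction. In these 5 fits the adjusted p was 0.0722 to 0.148 for Cd74, 0.0811 to 0.171 for H2-Aa and 0.109 to 0.213 for H2-Ab1. DESeq2 called 8 of the 10 members toward resident cells, all except H2-DMb2 and Ciita, where it called 3.45% of the genes it tested in that direction. Transcript length moved with the difference across genes (Spearman rho 0.338 over 11354 genes, which are not independent and share the libraries), and the members were short, with a median effective length of 1093 bases against 2568 for all tested genes. With each library's length trend taken out, the log2 difference was -1.32 for Cd74 (adjusted p = 0.0414), -1.28 for H2-Aa (adjusted p = 0.0492) and -1.16 for H2-Ab1 (adjusted p = 0.0614).

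Cd74 encodes the invariant chain, which is also a surface receptor for the cytokine MIF. It was the most abundant member in every library. Its level was 7695, 6841 and 5832 CPM in recruited replicates 1 to 3, against 16125, 18069 and 26619 CPM in resident replicates 1 to 3. The groups did not overlap, and the lowest resident library stood at more than 2 times the highest recruited one. The log2 difference was -1.58 ± 0.21 SE (adjusted p = 0.0304). Ranked by FPKM, a level per transcript length, Cd74 was the 8th, 9th and 14th gene of the recruited libraries and the 4th, 5th and 4th of the resident ones. The gene lies on chromosome 18 at 60803849 to 60812652 (GRCm38.p6) and overlaps the annotated Mir5107.

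The I-A chains differed by nearly the same factor as Cd74. H2-Aa, the alpha chain, was read at 1866, 1748 and 1346 CPM in recruited replicates 1 to 3, against 3684, 4998 and 6648 CPM in resident replicates 1 to 3. H2-Ab1, the beta chain, was read at 4688, 4461 and 3494 CPM in the recruited libraries, against 8394, 11235 and 14996 CPM in the resident ones. Neither gene overlapped between the groups. The log2 differences were -1.63 ± 0.23 SE for H2-Aa (adjusted p = 0.0383) and -1.45 ± 0.22 SE for H2-Ab1 (adjusted p = 0.0493). H2-Ab1 lies at 34263227 to 34269418 and H2-Aa at 34282744 to 34287823 of chromosome 17, and neither has an overlapping gene in the RefSeq annotation.

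H2-Eb1, the I-E beta chain, missed the threshold although its estimate was as far from 0. It was read at 1227, 1202 and 842 CPM in recruited replicates 1 to 3, against 2264, 3399 and 4790 CPM in resident replicates 1 to 3. The groups were separate, and the resident libraries spread widely, with a coefficient of variation of 36.3% against 19.8% in recruited libraries. The log2 difference was -1.68 ± 0.27 SE (95% interval -2.31 to -1.05, adjusted p = 0.0638). H2-Eb1 passed in 7 alternative runs, among them limma-voom (adjusted p = 0.0414) and DESeq2 (adjusted p = 4.80e-08). It missed in the others, as in edgeR with the length trend taken out (adjusted p = 0.0804). H2-Ea-ps, the defective I-E alpha gene of this strain, was at 0 in all 6 libraries, and a count of 0 allows up to 3 counts in a library. H2-Eb2, a second E beta gene, had 11 counts over the recruited and 11 over the resident libraries and was too low to be tested.

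The estimates for both abundant DM chains were closer to 0 than those of the I-A chains, a gap that was not tested. H2-DMa, the alpha chain of the peptide exchange chaperone, was read at 238, 247 and 177 CPM in recruited replicates 1 to 3, against 332, 462 and 589.6 CPM in resident replicates 1 to 3. H2-DMb1, its main beta chain here, was read at 302, 324 and 231 CPM in the recruited libraries, against 437, 521 and 785 CPM in the resident ones. Both genes were separate between the groups, at 2.09-fold and 2.03-fold higher levels in resident cells, and neither passed (log2 differences -1.06 ± 0.23 SE and -1.02 ± 0.23 SE, adjusted p 0.105 and 0.110). The genomic span of H2-DMa overlaps that of Brd2, and no source used here says whether strand was used to assign reads in the overlap.

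H2-DMb2, a second DM beta gene, was read far lower than H2-DMb1. It stood at 2.75, 5.82 and 3.01 CPM in recruited replicates 1 to 3, against 5.63, 10 and 27.1 CPM in resident replicates 1 to 3. Recruited replicate 2 reached just above resident replicate 1, so the groups overlapped, and resident replicate 3 stood far above the other two. The log2 difference was -1.88 ± 0.63 SE (adjusted p = 0.202) and -1.01 without resident replicate 3. Of the 75-base windows in annotated H2-DMb2 transcripts, 254 of 1741 stand letter for letter in H2-DMb1 transcripts (GENCODE M21), and 75 bases is the read length. The authors' counting had to divide reads from those stretches, so the lower gene's values are uncertain. The other 8 members shared no window, read on the transcript's strand, with another gene.

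DO, which restrains DM and is best known from B cells, was low in both groups. H2-Oa, its alpha chain, was read at 1.91, 3.15 and 1.23 CPM in recruited replicates 1 to 3, against 4.37, 7.15 and 19.8 CPM in resident replicates 1 to 3. H2-Ob, its beta chain, was read at 3.22, 5.68 and 4.49 CPM in the recruited libraries, against 9.92, 20.4 and 18.5 CPM in the resident ones. Neither overlapped, and neither passed. The log2 difference was -2.31 ± 0.69 SE for H2-Oa (95% interval -3.90 to -0.73, adjusted p = 0.167), the widest among the members, and -1.86 ± 0.42 SE for H2-Ob (adjusted p = 0.108). Without resident replicate 3 that of H2-Oa was -1.45 (adjusted p = 0.388). The span of H2-Oa overlaps that of the annotated BC051537, and the same limit on strand holds there.

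Ciita, the transactivator, had the estimate closest to 0 among the members in the edgeR fit reported here, a place that some other fits did not keep. It was read at 42.2, 36.5 and 23.9 CPM in recruited replicates 1 to 3, against 50.7, 32.1 and 67.6 CPM in resident replicates 1 to 3. The groups overlapped, since resident replicate 2 lay below recruited replicates 1 and 2. The log2 difference was -0.55 ± 0.32 SE (adjusted p = 0.427), and its 95% interval, -1.28 to 0.17, reaches from more than 2-fold higher in resident cells to slightly higher in recruited cells. It was -0.27 without resident replicate 3 and -0.80 with the length trend taken out, neither past the threshold. With the length trend taken out H2-DMb1 was closer to 0, at -0.76. With resident replicates 2 and 3 both left out H2-DMb2 was closer, at -0.54 against -0.57 for Ciita. Ciita lies on chromosome 16 at 10480014 to 10531064 and its span overlaps that of the annotated Dexi, with the same limit.

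**Figure D2:**
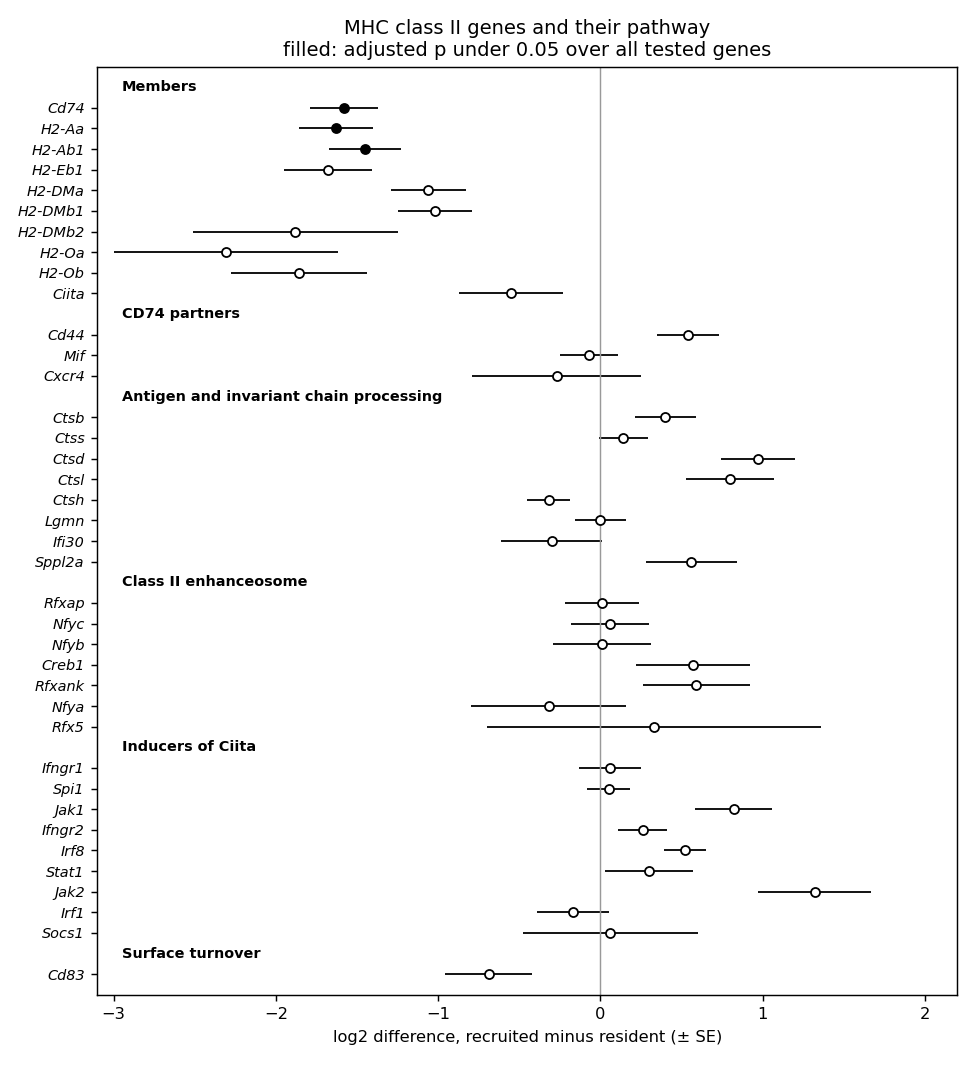
Log2 difference, recruited minus resident, with its standard error, for the 10 MHC class II genes and 28 tested genes of their pathway (3 libraries per group). Filled circles are the 3 genes with an adjusted p under 0.05, Cd74, H2-Aa and H2-Ab1, all left of 0, while 21 of the 28 pathway genes lie right of 0.

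Per transcript length the members formed a steep order that was the same in all 6 libraries for the 6 most abundant, with Cd74 above H2-Ab1, H2-Aa, H2-Eb1, H2-DMb1 and H2-DMa. Cd74 averaged 6296 ± 876 FPKM in recruited and 18474 ± 4664 FPKM in resident libraries (SD, n = 3 each). H2-DMa averaged 150.2 ± 24.7 FPKM in recruited and 309.8 ± 78.3 FPKM in resident libraries. The other 4 members changed places between libraries. Ciita averaged 6.51 ± 1.77 FPKM in recruited and 9.54 ± 3.37 FPKM in resident libraries and its range in the recruited libraries, 4.59 to 8.08 FPKM, overlapped that of H2-DMb2, 4.65 to 9.72 FPKM. H2-Oa and H2-Ob, at 2.44 ± 1.11 and 1.80 ± 0.476 FPKM in recruited libraries, could not be ordered either.

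Ratios within a library do not depend on its size. H2-Aa to H2-Ab1 was 0.454, 0.447 and 0.439 in FPKM in recruited replicates 1 to 3, against 0.500, 0.507 and 0.505 in resident replicates 1 to 3. The gap between the groups was small and exceeded the spread within each. Cd74 to H2-Aa was 3.36, 3.19 and 3.53 in the recruited libraries, against 3.56, 2.94 and 3.26 in the resident ones, with full overlap. H2-DMa to H2-Aa was 0.0762, 0.0842 and 0.0790 in the recruited libraries, against 0.0542, 0.0554 and 0.0534 in the resident ones. The FPKM ratio of H2-DMa to H2-Aa was thus higher in every recruited library, while both genes were lower there. H2-DMa is the longer, with an effective length of 1474 bases against 884 for H2-Aa. With each library's length trend taken out, the log2 differences were -0.92 for H2-DMa and -1.28 for H2-Aa. The part of transcript length in this ratio was not tested.

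The balance of DO to DM differed the other way. H2-Oa to H2-DMa was 0.0137, 0.0219 and 0.0118 in recruited replicates 1 to 3, against 0.0224, 0.0264 and 0.0572 in resident replicates 1 to 3. H2-Ob to H2-DMb1 was 0.00471, 0.00771 and 0.00863 in the recruited libraries, against 0.0101, 0.0173 and 0.0105 in the resident ones. Both ratios were lower in every recruited library, for H2-Oa by a narrow margin and from 25 to 66 counts per recruited library. H2-Eb1 to H2-Ab1 was 0.177, 0.182 and 0.164 in the recruited libraries, against 0.183, 0.205 and 0.218 in the resident ones. These ratios were not tested.

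**Figure D3:**
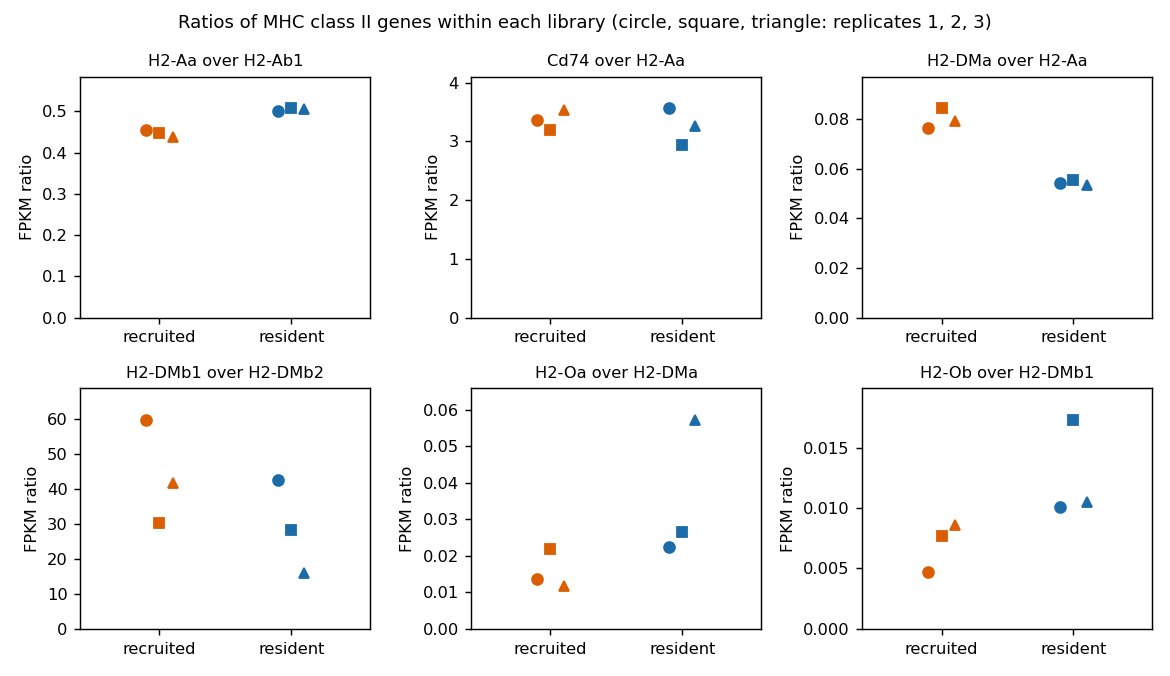
FPKM ratios of 6 pairs of MHC class II genes within each of the 3 recruited and 3 resident libraries, each axis starting at 0. H2-DMa over H2-Aa was higher in all recruited libraries, H2-Oa over H2-DMa and H2-Ob over H2-DMb1 were lower there, and Cd74 over H2-Aa overlapped.

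The order of the libraries within a group was compared between members. Resident replicate 3 was the highest resident library for 9 of the 10 members, H2-Ob being the exception, and resident replicate 1 the lowest for 9, with Ciita the exception. Recruited replicate 3 was the lowest recruited library for 8 members, all except H2-DMb2 and H2-Ob. Recruited replicates 1 and 2 were each the highest recruited library for 5 members.

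Markers of other cells that carry class II were read in the same libraries. Among B cell markers, Pax5 was at 0 in all 6 libraries, Cd79a reached at most 0.247 CPM in recruited libraries and was at 0 in resident ones, and Ms4a1 was at 0 in recruited libraries and reached at most 0.629 CPM in resident ones. The 11 dendritic cell markers summed to 244, 435 and 169.6 CPM in recruited replicates 1 to 3, against 252, 619.7 and 1053 CPM in resident replicates 1 to 3. The ranges overlapped. The resident libraries stood in the same order as for Cd74, and the recruited libraries did not. The fibroblast sum given below had that resident order too. The most abundant dendritic cell marker was Cd209a, at 111 ± 56.4 CPM in recruited and 335 ± 243 CPM in resident libraries (SD, n = 3 each). Itgax, which encodes CD11c, was read at 98.9 ± 55.9 and 96.7 ± 44.3 CPM, and Mgl2 at 32.9 ± 8.15 and 139.7 ± 96.2 CPM. The sum rests mostly on these 3 markers. Of the 8 markers tested 0 passed in edgeR (adjusted p 0.238 for Cd209a, 0.981 for Itgax and 0.135 for Mgl2), and 6 had a negative log2 difference. An unadjusted p under 0.05 was found for 3, Cd209a, Mgl2 and Batf3, all lower in recruited cells, against 8.65% of all tested genes. Batf3, a factor of one dendritic cell lineage, was read at 10, 15.1 and 8.49 CPM in recruited replicates 1 to 3, against 19.1, 43.0 and 47.5 CPM in resident replicates 1 to 3. It was lower in every recruited library (log2 difference -1.70 ± 0.39 SE, adjusted p = 0.113). Its resident libraries stood in the order of Cd74, and its recruited libraries did not. DESeq2 called 2 of the list, Mgl2 and Batf3, both lower in recruited cells, where it called 3.45% of genes in that direction, and limma-voom called 0. Zbtb46, a defining dendritic cell gene, was read at 0.955, 1.86 and 2.12 CPM in the recruited libraries, against 3.53, 6.90 and 0.00 CPM in the resident ones. Flt3 was read at 2.93, 14.1 and 2.67 CPM in the recruited libraries, against 9.82, 9.26 and 5.34 CPM in the resident ones. Xcr1 and Clec9a had means under 1 CPM in both groups and were too low to be tested. Their counts were higher in recruited libraries, 43 against 7 for Xcr1 and 22 against 3 for Clec9a. Of the plasmacytoid dendritic cell markers, Tcf4 was read at 42.5 ± 5.60 CPM in recruited and 47.3 ± 19.0 CPM in resident libraries (adjusted p = 0.843). Siglech had 8 counts over the recruited and 99 over the resident libraries, and Ccr9 had 22 and 0. Both were too low to be tested in edgeR, and Ly6d had no count. Fibroblast markers summed to 9.97, 5.63 and 10.7 CPM in the recruited libraries, against 15.0, 39.0 and 49.4 CPM in the resident ones, without overlap, and Pdgfra had no count. DESeq2 called 1 of them, Col3a1, lower in recruited cells. EdgeR called 0 of 3 tested, with 2 at an unadjusted p under 0.05, against 16.8% of all tested genes in either direction. The part of dendritic cells or fibroblasts in the class II difference was not tested.

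**Figure D4:**
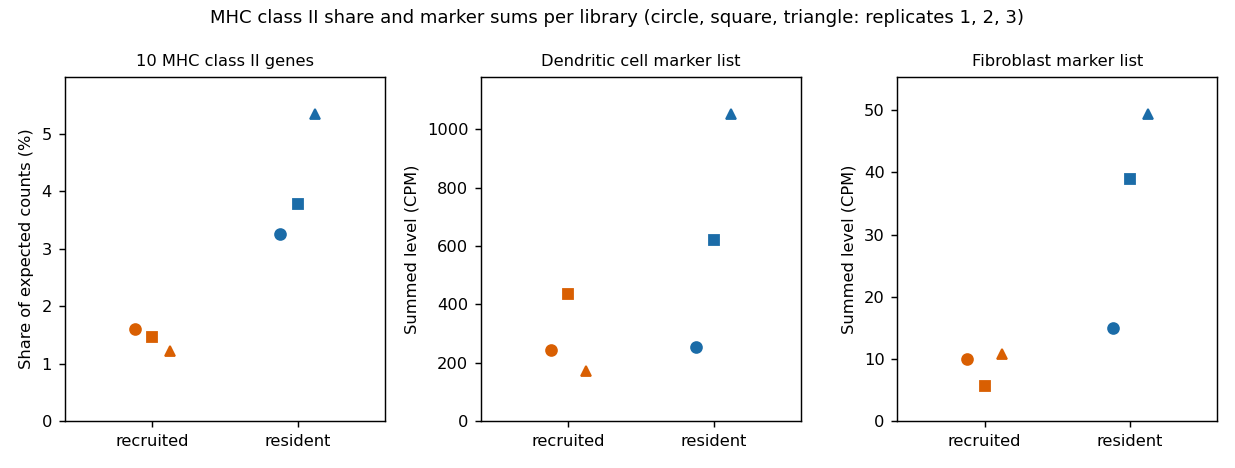
Share of expected counts taken by the 10 MHC class II genes (%), and summed CPM of the dendritic cell and fibroblast marker lists, in each of the 3 recruited and 3 resident libraries, each axis starting at 0. The class II share was 1.21 to 1.61% in recruited and 3.26 to 5.35% in resident libraries, and the dendritic cell sum overlapped between the groups.

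None of the other class II pathway genes tested passed, and most of the estimates leaned toward recruited cells. Of 36 symbols listed, 31 were in the table and 28 were tested. Of these 0 passed in edgeR, where 0.255% and 0.0617% of all tested genes passed toward resident and recruited cells. At an unadjusted p under 0.05 there were 2 lower and 6 higher in recruited cells, against 8.65% and 8.13% of all tested genes. DESeq2 called 5 of them, Ctsl, Ctsd, Jak1, Jak2 and Irf8, all higher in recruited cells, where it called 2.72% of genes in that direction. Limma-voom called 0 of them. The median log2 difference was 0.10, with 7 negative and 21 positive values, against 5565 and 5789 among all tested genes.

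The lysosomal enzymes that cut antigens and the invariant chain were abundant in both groups. Ctsb, cathepsin B, was read at 17198 ± 3099 CPM in recruited and 13021 ± 2529 CPM in resident libraries (SD, n = 3 each; adjusted p = 0.346). Ctss, the main protease of invariant chain removal in antigen-presenting cells, stood at 10650.0 ± 1098 and 9633 ± 1458 CPM (log2 difference 0.14 ± 0.15 SE, adjusted p = 0.689). Of the 8 genes of this list 6 had a positive log2 difference, and the median was 0.27. Ctsd, cathepsin D, chosen after its values were seen, was read at 7839, 13661 and 9234 CPM in recruited replicates 1 to 3, against 4877, 6457 and 4407 CPM in resident replicates 1 to 3. The groups were separate and the log2 difference was 0.97 ± 0.23 SE (adjusted p = 0.122).

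The factors that hold Ciita on class II promoters were low and showed no call. Rfxap, a subunit of RFX, was read at 41.2 ± 6.43 CPM in recruited and 40.8 ± 9.72 CPM in resident libraries, and Nfyc, a subunit of NF-Y, at 32.4 ± 2.69 and 31.1 ± 8.48 CPM (SD, n = 3 each; adjusted p 0.987 and 0.934). Rfx5, the DNA-binding subunit of RFX and chosen after its values were seen, was the most scattered, at 4.48, 7.97 and 4.20 CPM in recruited libraries, against 8.67, 0.154 and 4.43 CPM in resident ones. The median log2 difference of the 7 genes was 0.06.

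Interferon gamma is the best known inducer of Ciita in macrophages. No gene passed on the list drawn up for inducers of Ciita. That list holds genes of the interferon gamma receptor and its signalling, and also Spi1, Irf8 and Socs1. Ifngr1, the ligand-binding receptor chain, was read at 624 ± 63.5 CPM in recruited and 599 ± 151 CPM in resident libraries, and Spi1, the myeloid factor PU.1, at 597 ± 17.3 and 577 ± 64.1 CPM (SD, n = 3 each; adjusted p 0.913 and 0.887). Of the 9 genes 8 had a positive log2 difference. Jak2, a kinase bound to the receptor and chosen after its values were seen, was read at 103, 89.1 and 86.5 CPM in recruited replicates 1 to 3, against 50.6, 17.5 and 43.2 CPM in resident replicates 1 to 3. Its log2 difference was 1.32 ± 0.35 SE (adjusted p = 0.138), and without resident replicate 1 Jak1 and the CD74 partner Cd44 were the pathway genes that passed, both higher in recruited cells, where 2.19% of tested genes did.

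Cd83, which slows the removal of class II molecules from the cell surface, was read at 155 ± 31.9 CPM in recruited and 250.3 ± 98.1 CPM in resident libraries (SD, n = 3 each; adjusted p = 0.259). Cd44, the signalling partner of surface CD74, was read at 395 ± 38.8 and 272 ± 70.6 CPM (adjusted p = 0.223). Mif, the ligand of CD74, stood at 148 ± 18.4 and 155 ± 31.4 CPM, with a log2 difference of -0.07 ± 0.18 SE (adjusted p = 0.900).

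Profiles over the 6 libraries were also compared with that of Cd74, by the root mean square difference of log2 CPM after each gene's own mean was taken out. Among 7696 genes with at least 10 CPM on average, H2-Aa, H2-Ab1 and H2-Eb1 were the closest 3, at 0.0932, 0.105 and 0.159. H2-DMa and H2-DMb1 came 19th and 20th, H2-Ob 114th and Ciita 667th, and H2-DMb2 and H2-Oa were under that level. The 5 closest genes outside the members were Bmyc at 0.179, Fgd2 at 0.197, Tyms at 0.209, Fosb at 0.229 and Abca9 at 0.240. Fgd2, an exchange factor for the GTPase Cdc42, was read at 40.5 ± 4.24 CPM in recruited and 110.9 ± 15.7 CPM in resident libraries (SD, n = 3 each; adjusted p = 0.0184). Of these 5 Fgd2 passed the test. The difference between the groups is itself part of each profile.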

How the data were processed

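The members and gene lists were chosen with earlier results of these data known. Per the labels' protocols, cDNA was made with SMART-Seq v4 and 18 cycles of pre-amplification, and paired-end reads of 75 bases came from Nextera XT libraries. There were 2 sequencing runs, and the sources used here do not say which library was in which, so run and group cannot be told apart. The method carries no molecular identifiers. The authors deposited expected counts per gene and FPKM per gene. Expected counts, not normalized, were deposited by the authors as estimates that need not be whole. The deposited FPKM values were scaled by the authors to length and library size. Per the submitters' processing notes RSEM 1.2.28 and STAR 2.5.3a were among the tools, with mm10 as the build. No source used here names the gene annotation.

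Dates stood in place of symbols for 26 of 24848 genes, 0.121 to 0.138% of each library's counts, and these were left out, so March1 and March8 were not analysed here. Counts were rounded and tested with edgeR 4.0.16 (quasi-likelihood, TMM, filterByExpr, robust, R 4.3.3), and p-values were adjusted by Benjamini-Hochberg over the tested genes. The standard error is the absolute log2 difference over the square root of F. Effective length is count over FPKM, rescaled. DESeq2 1.42.0 and limma 3.58.1 were alternatives. The rule for pathway genes was to name the 2 most abundant of each list and any past the threshold, and the others are marked. Gate genes and cell type markers named in the text were picked from their lists with values known. Per the labels, the replicates of a group are pools of 3 mice from repeats of the experiment.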

Additional observations from a re-analysis of the deposited data

How the results depend on the processing

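The direction of each of the 10 members held under every alternative run that tested it. H2-DMb2 and H2-Oa were not tested under the filter of 10 CPM in 3 libraries. For the 8 members whose libraries do not overlap, leaving out a library could not turn the direction, so this is no sign of stability. Over all genes, 36 passed in edgeR. The count was 58 with no filter on low counts, 73 with a filter of 10 CPM in 3 libraries and 726 in DESeq2. Limma on log2(FPKM + 1), on log2(FPKM + 0.1) and on unfiltered log2(FPKM + 1) called 99, 60 and 2 genes. Leaving out 1 library gave 0 to 580 genes. The 580 came without resident replicate 1, and the 0 without recruited replicate 2, where 1258 genes had an unadjusted p under 0.05. With resident replicates 2 and 3 both left out, which assumes the lone resident library varies like the recruited ones, 11 genes passed.

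Of the members 3 passed, against 8 in DESeq2, 0 to 7 with 1 library left out, 0 in limma on unfiltered log2(FPKM + 1) and 0 with resident replicates 2 and 3 left out. At an unadjusted p under 0.05 there were 9 and 7 members in those last fits, as for 15.1 and 11.8% of all genes tested there. In that last fit the members' median log2 difference was -1.02, and -1.25 for Cd74 (adjusted p = 0.0972). Among the pathway genes DESeq2 called 5, and leaving out 1 library gave 0 to 2. Other normalization factors left the same 3 members called. With no filter, with the filter of 10 CPM in 3 libraries (8 members tested) and in limma-voom 4 members passed, H2-Eb1 being added. The same 4 passed in limma on filtered log2(FPKM + 1) and log2(FPKM + 0.1). The cause of these changes was not tested.

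Replicate numbers were not shown to pair the libraries. Deviations from the group means of same-numbered libraries correlated at 0.016, 0.063 and 0.049, and those of unlike number at -0.093 to 0.059. Recruited replicate 2 correlated best with its own number. Recruited replicate 1 correlated best with resident replicate 2 (0.019), and recruited replicate 3 with resident replicate 1 (0.059). These values do not settle whether the numbers pair the libraries. With the replicate number as a block, edgeR called 28 genes and 0 members, with 9 members and 14.8% of all tested genes at an unadjusted p under 0.05. The adjusted p was then 0.0502 for Cd74, 0.0633 for H2-Aa and 0.0770 for H2-Ab1. If pools of one number shared mice, which the labels do not say, this would be the fit to read.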
